A study of Mus musculus with 12 samples.

Results

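The genes described here are Txnip, the FoxO transcription factor genes Foxo1 and Foxo3, and 7 antioxidant enzyme genes, Gpx1, Sod1, Sod2, Cat, Prdx1, Txn1 and Mgst3. They were taken by symbol. All 10 had a row on every plate, out of 22307 gene symbols in the series, and all 10 passed the filter on low counts. The cells were labelled as mouse haematopoietic stem cells (HSC) of the aorta-gonad-mesonephros region (AGM), the embryonic site where such cells arise, of the fetal liver, where they expand, and of the bone marrow. They were sorted singly into 96-well plates holding a methyltransferase reaction mixture, nuclei were taken away on magnetic beads, and the cytoplasmic polyadenylated RNA was counted with unique molecular identifiers (UMIs), tags meant to mark single molecules. Since a detected gene had a median of 2 UMIs per cell on fetal liver plate 5 and of 18 on bone marrow plate 1, UMIs may not be single molecules on every plate, which bears on all levels, spreads and intervals per cell. The 3 groups were AGM cells on 2 plates of 1 origin code, fetal liver cells on 5 plates of 2 codes (plates 1 to 3 and plates 4 to 5) and bone marrow cells on 5 plates of 2 codes (plates 1 to 3 and plates 4 to 5). The labels of these plates give no treatment, genotype, age or sort markers. The series as a whole concerns the barcoding mouse lines DARLIN and Cas9/CARLIN, and the labels do not say which line gave these cells. They also leave unsaid if a code stands for 1 animal or several pooled, and for bone marrow plates 4 and 5 only the titles name the tissue.

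Txnip protein binds thioredoxin and blocks it, and it lowers glucose uptake. Its gene is switched on by the glucose-sensing factors MondoA and Mlx and, in several cell types, by FoxO factors. FoxO1 and FoxO3 are held in the cytoplasm by AKT signalling and, when active in the nucleus, turn on genes for antioxidant defence and cell cycle arrest. Mice without FoxO factors, and mice without Txnip, lose blood stem cells under oxidative stress. Superoxide is turned into hydrogen peroxide by Sod1 in the cytosol and Sod2 in mitochondria, and the peroxide is then removed by catalase (Cat), by glutathione peroxidase (Gpx1) and by peroxiredoxin (Prdx1), which thioredoxin (Txn1) recycles.

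Because the results turn on Txnip, its promoter is shown first, beside that of its arrestin relative Arrdc4, another target of MondoA, whose level did not pass the test in any comparison. Txnip lies on the plus strand of chromosome 3, from 96557957 to 96561883 (GENCODE, GRCm38). The window is the stretch of bases upstream of the RefSeq start, chr3:96557816-96557956 on the plus strand for Txnip and chr7:68749239-68749451 on the minus strand for Arrdc4 (GRCm38.p6). In Txnip the capitals mark the FoxO motif GTAAACA, which began 121 bases before the start, and the pattern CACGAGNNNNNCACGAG, which began 85 bases before it. That pair of imperfect E-boxes is the known carbohydrate response element of the gene. In Arrdc4 the capitals mark the E-box CACGTG and, on the other strand, the antioxidant response motif TGACNNNGC.
Txnip: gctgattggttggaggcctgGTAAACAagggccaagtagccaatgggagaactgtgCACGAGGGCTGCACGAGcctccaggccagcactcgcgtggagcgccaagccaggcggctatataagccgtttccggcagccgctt
Arrdc4: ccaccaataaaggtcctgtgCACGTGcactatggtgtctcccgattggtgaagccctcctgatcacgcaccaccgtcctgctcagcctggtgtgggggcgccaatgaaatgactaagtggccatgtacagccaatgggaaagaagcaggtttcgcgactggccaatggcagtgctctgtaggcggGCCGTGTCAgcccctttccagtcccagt

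Both strands of the 250 bases upstream of 32851 RefSeq promoters were searched for these letters, and no match overlapped a match to another motif in either sequence shown. GTAAACA stood in 3.17% of all promoters and, among the 10 genes, in Txnip only. The pattern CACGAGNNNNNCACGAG was written down after the Txnip sequence had been read, and it stood in 1 promoter of all, that of Txnip. TGACNNNGC stood in 10.2% of promoters, among them Sod1 and Prdx1, and CACGTG stood in 6.02% of promoters and in 0 of the 10. A match is only a run of letters, and nothing was measured here on the binding of a factor.

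The cells kept numbered 143 (AGM), 454 (fetal liver) and 423 (bone marrow), with plate totals from 2596681 to 15977740 UMIs. The plates used the same 96 well barcodes, so barcodes do not tell plates apart. All 12 blood stem cell markers had UMIs in every tissue, which in summed cells does not show what each cell was. The AGM plates also had the highest summed endothelial markers (1901 to 2338 counts scaled to library size, CPM, against 873 to 1067 in fetal liver and 442 to 663 in bone marrow, where Cdh5 and Plvap were at 0) and cycling markers (2196 to 2202 CPM in AGM, 997 to 1281 in fetal liver and 197 to 735 in bone marrow). Summed erythroid markers ran from 44.2 to 2166 CPM on fetal liver plates. Summed granulocyte markers ran from 511 to 515 CPM in AGM, 433 to 533 CPM in fetal liver and 700 to 1048 CPM in bone marrow. AGM has 1 library in the tests, its spread was assumed to be that of the other libraries, so tissue cannot be told apart from origin code in AGM. In summed cells, fewer cells with a transcript and less of it per cell cannot be told apart.

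Txnip was the member that rose in all 3 comparisons. Txnip stood at 81.7 and 85.0 CPM on the AGM plates. It stood at 185, 205, 167, 210 and 172 CPM on fetal liver plates 1 to 5 and at 388, 336, 397, 617 and 502 CPM on bone marrow plates 1 to 5. The plates of the 3 tissues did not overlap. By origin code, its sum was 82.5 CPM for AGM, with 187 and 203 CPM for fetal liver and 379 and 558 CPM for bone marrow, where plates 4 to 5 were the higher. Fetal liver against AGM gave a log2 fold change of 1.24 ± 0.28 (2.37-fold, adjusted p = 0.0104, edgeR's quasi-likelihood test, where the error approximates a standard error). Bone marrow against fetal liver gave 1.26 ± 0.22 (2.40-fold, adjusted p = 0.00127), and bone marrow against AGM gave 2.51 ± 0.30 (5.68-fold, adjusted p = 9.15e-06).

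The Txnip call of bone marrow against AGM held in 27 of 27 alternatives, with log2 fold changes from 2.18 to 2.76 and adjusted p from 7.4e-30 to 0.0088 over edgeR, DESeq2 and limma. Some of these only left out fetal liver plates, which hold no cells of this comparison. Others took each plate as a library, although plates of 1 origin code are not independent, and AGM stayed 1 origin code in all. Over the alternatives the adjusted p ran from 2.6e-08 to 0.344 in fetal liver against AGM and from 2.2e-14 to 0.0878 in bone marrow against fetal liver. Without fetal liver plate 4 the calls of fetal liver against AGM (log2 fold change 1.11, adjusted p = 0.344) and of bone marrow against fetal liver (1.36, adjusted p = 0.0878) were lost, while the genes called in all were 181, 117 and 329 without that plate against 748, 732 and 1380 with it. The call of fetal liver against AGM was also lost without fetal liver plates 4 to 5 (1.19, adjusted p = 0.0501) and with library totals in place of TMM scaling (1.01, adjusted p = 0.0510), a scaling that moves all genes by a median of -0.23 in that comparison, by -0.04 in bone marrow against fetal liver and by -0.27 in bone marrow against AGM. When the 10% of cells richest in endothelial markers were left out of each plate, the log2 fold changes of Txnip were 1.25, 1.24 and 2.49, and all 3 calls held. Without the 10% richest in erythroid markers they were 1.19, 1.28 and 2.47, again with all 3 calls. Here and below, each removal took the same part of every plate, and the markers of the cells left were not summed. The part of such cells in a change was not tested.

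**Figure D1:**
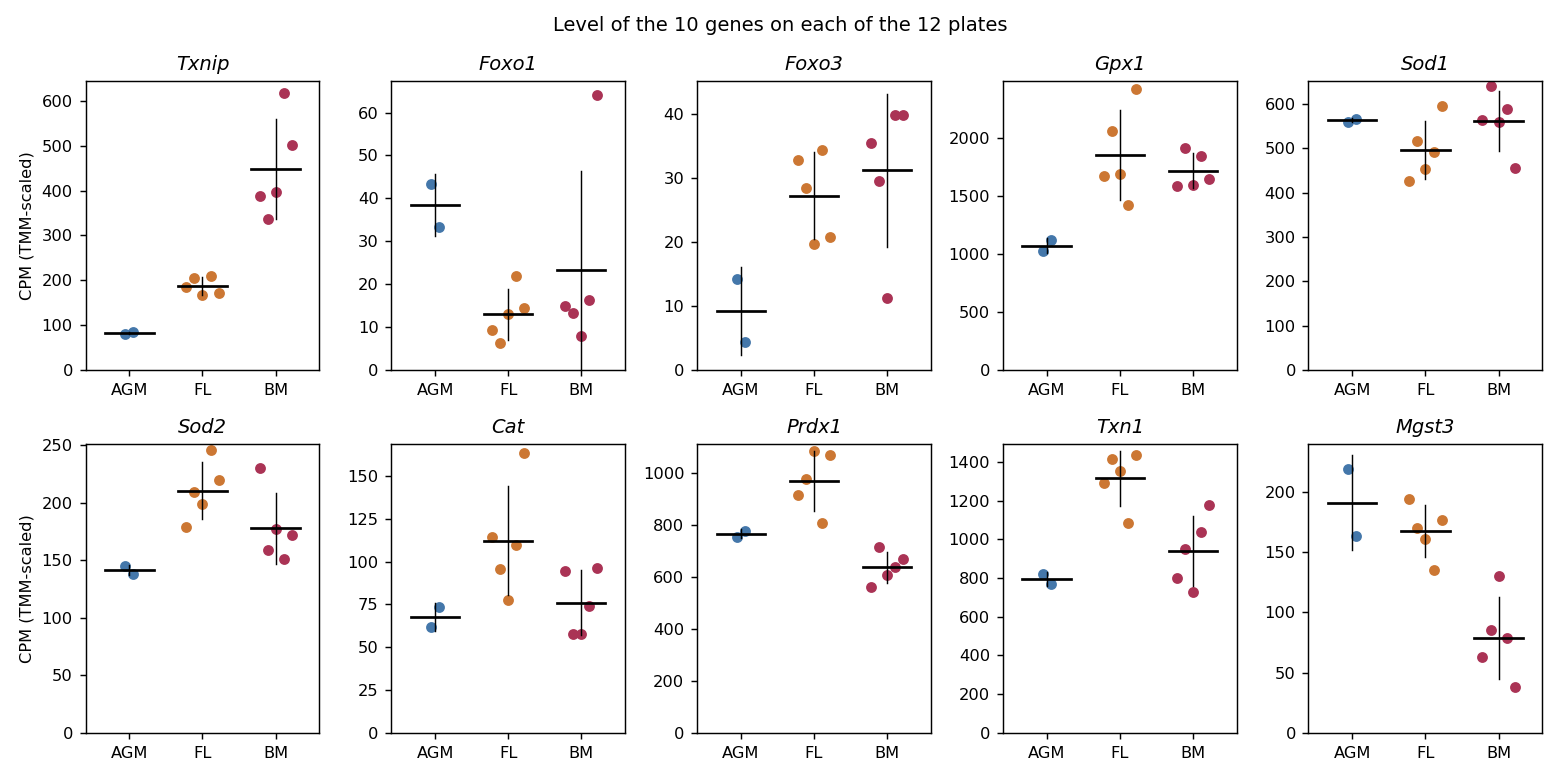
Level of each of the 10 genes in CPM (linear axis from 0, TMM-scaled) on the 2 AGM, 5 fetal liver (FL) and 5 bone marrow (BM) plates; points are plates in plate order, horizontal lines their mean and vertical lines 1 SD, and plates of one origin code are not independent. Txnip plates do not overlap between tissues (81.7 to 85.0, 167 to 210 and 336 to 617 CPM), and bone marrow plate 5 stands apart for Foxo1 at 64.1 CPM.

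Mean levels kept this order in single cells thinned to 20000 UMIs each, which left 141 AGM, 419 fetal liver and 392 bone marrow cells. The plate means of Txnip were 1.72 and 2.15 UMIs per cell in AGM, 3.91, 3.88, 2.51, 4.26 and 3.01 in fetal liver, and 7.91, 7.26, 9.69, 10.5 and 9.52 in bone marrow. These plate means did not overlap between tissues either. The median AGM cell had 1 UMI, the median fetal liver cell 3 and the median bone marrow cell 6, and the cells at the 90th percentile had 5, 9 and 19. Cells without a thinned UMI were found in every tissue. At least 1 Txnip UMI was seen in 57.4% of AGM cells (exact 95% interval 48.9 to 65.7%), 77.6% of fetal liver cells (73.3 to 81.5%) and 83.7% of bone marrow cells (79.6 to 87.2%). The order of shares did not hold plate by plate: fetal liver plate 3 had 53.4%, below the 54.7% and 63.0% of the AGM plates. Without thinning the shares were 86.0%, 87.2% and 92.2% of cells, with 70.7% on fetal liver plate 3 against 84.2% and 89.6% on the AGM plates. Intervals cover counting error only.

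**Figure D2:**
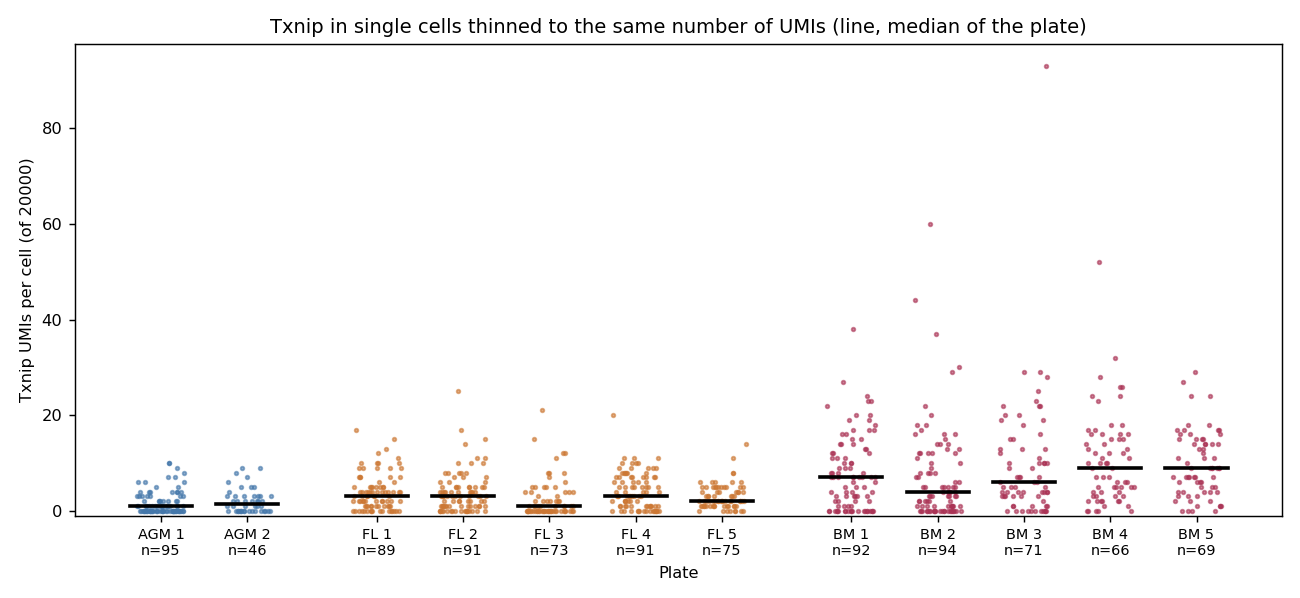
Txnip UMIs per cell (linear axis, each cell thinned to 20000 UMIs) on each plate of AGM, fetal liver (FL) and bone marrow (BM); points are cells, n is the number of cells and lines are plate medians. Plate medians are 1 and 1.5 in AGM, 1 to 3 in fetal liver and 4 to 9 in bone marrow, and the highest bone marrow cell has 93 UMIs.

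An antisense gene, Gm15441, overlaps Txnip on the opposite strand, and since the strand setting of the counting is not given in the sources used here, reads of both cannot be told apart. The UMIs of Gm15441 numbered 216 for AGM, 111 for fetal liver and 422 for bone marrow cells, which is 9.34%, 2.08% and 3.37% of the UMIs of Txnip there. Of the Txnip relatives and thioredoxin partners, 0 of 9 tested genes passed in each comparison. The median log2 fold change of that list was -0.05, 0.07 and -0.03 in fetal liver against AGM, bone marrow against fetal liver and bone marrow against AGM, beside 0.05, 0.00 and 0.04 for all tested genes. Arrdc4 had 30.5 and 30.9 CPM on the AGM plates, and its fetal liver and bone marrow plates reached down to 2.36 CPM and up to 50.3 CPM. Its plates overlapped between bone marrow and AGM, where the log2 fold change was 0.03 ± 0.57. Mlxip, which encodes MondoA, had 10.4 CPM in bone marrow and 11.4 CPM in AGM (-0.12 ± 0.78), and Mlx had 25.9 and 21.4 CPM (0.28 ± 0.54). Neither passed in any comparison.

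By Pearson correlation of log2(CPM + 1) over the 12 plates, which share tissues and origin codes, the genes most like Txnip among 7810 ranked were H2-D1, a major histocompatibility complex class I chain (r = 0.968), Gcnt2, a glycan-branching enzyme (0.966), Ctss, a lysosomal protease (0.963), Anxa1, an annexin (0.960), and Cd74, the class II invariant chain (0.960). H2-D1 averaged 129 CPM on AGM plates, 432 CPM on fetal liver plates and 1238 CPM on bone marrow plates. Ctss and Cd74 had no UMI in AGM, while Cd74 averaged 22.6 CPM on fetal liver plates and 154 CPM on bone marrow plates.

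Mgst3, a membrane-bound microsomal glutathione S-transferase with peroxidase activity, was the member that fell. Its gene lies on the minus strand of chromosome 1, from 167371966 to 167393841. It had 219 and 163 CPM on the AGM plates and 194, 170, 161, 135 and 177 CPM on fetal liver plates 1 to 5. On bone marrow plates 1 to 5 it had 63.0, 84.9, 130, 78.4 and 37.8 CPM, all below every plate of the other tissues. Bone marrow against fetal liver gave a log2 fold change of -1.16 ± 0.25 (adjusted p = 0.00818, edgeR), and bone marrow against AGM gave -1.44 ± 0.29 (adjusted p = 0.00236). Fetal liver against AGM gave -0.28 ± 0.30 and did not pass (adjusted p = 0.716), with overlapping plates. After thinning, 78.7% of AGM cells, 66.1% of fetal liver cells and 22.4% of bone marrow cells held a Mgst3 UMI, against 95.8%, 81.5% and 34.3% without thinning. The 10% of bone marrow cells with the most held 85.6% of the thinned Mgst3 UMIs, against 42.2% in fetal liver and 35.8% in AGM.

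Without fetal liver plate 4 both Mgst3 calls were lost, at adjusted p = 0.159 for bone marrow against fetal liver and 0.0983 for bone marrow against AGM, with log2 fold changes of -1.30 and -1.48. The call against fetal liver was also lost without bone marrow plate 1 (-0.98, adjusted p = 0.0612), without fetal liver plates 1 to 3 (-1.02, adjusted p = 0.0754) and with both tissues fitted alone (-1.18, adjusted p = 0.0538). Over 27 alternatives the adjusted p of Mgst3 ran from 9.8e-09 to 0.159 against fetal liver and from 2.5e-10 to 0.0983 against AGM. Without the 10% of cells richest in endothelial markers the changes were -1.10 and -1.33, and both calls held.

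Counted over the list, fetal liver against AGM had 1 of 10 members called higher and 0 called lower, against 2.92% and 1.91% of the 15472 tested genes. The plates of 8 of the 10 did not overlap between fetal liver and AGM, where 26.6% of tested genes had plates that did not overlap. Bone marrow against fetal liver had 1 member higher and 1 lower, with 2.68% and 2.06% of all genes, and 3 members without overlap where 8.03% of genes had none. Bone marrow against AGM had 1 higher and 1 lower, with 5.29% and 3.63% of all genes, and 5 without overlap where 25.9% of genes had none. The median log2 fold change of the 10 members was 0.65, -0.15 and 0.30 in the 3 comparisons, beside the 0.05, 0.00 and 0.04 of all tested genes. The 3 comparisons share their libraries. With fetal liver and AGM fitted alone 7 members passed, Txnip, Foxo1, Foxo3, Gpx1, Sod2, Cat and Txn1, and 2218 genes passed in all, against 748 in the joint fit.

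**Figure D3:**
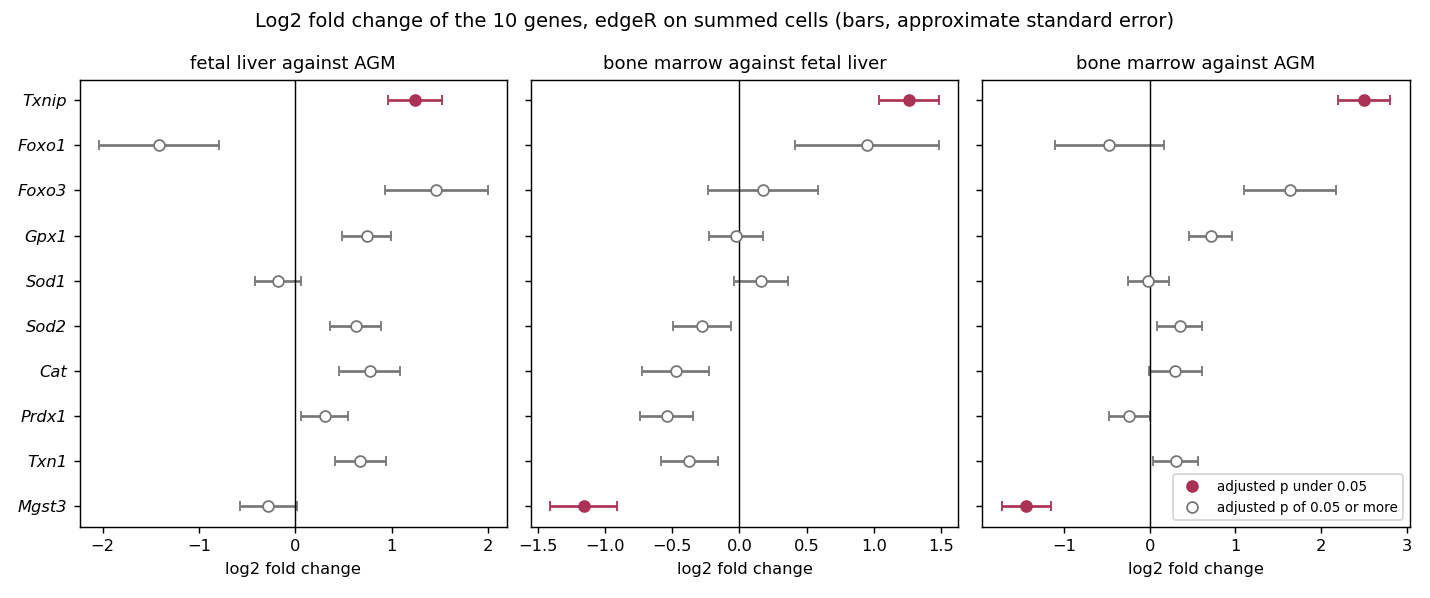
Log2 fold change of each of the 10 genes (horizontal axis, first-named tissue over the second) in the 3 comparisons, from edgeR on cells summed by origin code; bars are the approximate standard error and filled points passed an adjusted p of 0.05. Txnip passes to the right of 0 in all 3 panels and Mgst3 to the left in both bone marrow panels.

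Of the FoxO genes, Foxo1 had its highest mean in AGM and Foxo3 its lowest, and neither passed the test. Foxo1 lies on chromosome 3 from 52268336 to 52353221 (plus strand) and Foxo3 on chromosome 10 from 42181841 to 42276755 (minus strand). Foxo1 had 43.5 and 33.3 CPM on the AGM plates. It had 9.33, 6.39, 13.0, 21.9 and 14.5 CPM on fetal liver plates and 14.9, 13.4, 7.93, 16.3 and 64.1 CPM on bone marrow plates. Both AGM plates were above every other plate except bone marrow plate 5. Foxo1 in fetal liver against AGM gave -1.42 ± 0.62 (unadjusted p = 0.0338, adjusted p = 0.259, edgeR's quasi-likelihood test). It passed there in 4 of 27 alternatives, with log2 fold changes from -2.04 to -0.98. Bone marrow against AGM gave -0.47 ± 0.63 for Foxo1, with bone marrow codes at 12.5 and 45.6 CPM. Without bone marrow plates 4 to 5 that value was -1.69 (adjusted p = 0.0389), and without bone marrow plates 1 to 3 Foxo1 in bone marrow against fetal liver was 1.62 (adjusted p = 0.00347). Of 27 alternatives these comparisons passed in 2 and 1, with adjusted p up to 0.987 and 0.994, and the sign changed among them. An antisense gene, Gm20402, and Gm38034, on the same strand, overlap Foxo1.

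Foxo3 had 14.2 and 4.46 CPM on the AGM plates. It had 32.9, 28.5, 19.7, 34.5 and 20.9 CPM on fetal liver plates and 35.5, 29.6, 11.3, 39.9 and 39.9 CPM on bone marrow plates. All fetal liver plates were above both AGM plates, and bone marrow plate 3 lay between the AGM plates. Fetal liver against AGM gave 1.46 ± 0.53 (adjusted p = 0.147) and bone marrow against AGM gave 1.64 ± 0.54 (adjusted p = 0.0656). Without AGM plate 1 both changes passed, at 2.75 (adjusted p = 0.0108) and 2.92 (adjusted p = 0.00486), as each did in 4 of 27 alternatives, with adjusted p up to 0.663 and 0.402.

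Within a plate, the Foxo1 part of the Foxo1 plus Foxo3 UMIs needs no scaling between plates. It was 75.4% and 88.2% on the AGM plates, 22.1%, 18.3%, 39.7%, 38.8% and 41.0% in fetal liver, and 29.6%, 31.1%, 41.2%, 29.0% and 61.7% in bone marrow. Both AGM plates were above every fetal liver and bone marrow plate. UMIs of 1 cell are not independent: 1 cell held 30.5% of the AGM UMIs of Foxo3 and 1 cell 13.6% of the bone marrow UMIs of Foxo1, so no interval is given. The values compare transcripts of unequal length, so the part itself does not rank the genes, and only its change between tissues was read.

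Of 10 tested genes in the list of other FoxO factors and their regulators, 1 rose in fetal liver against AGM and 2 rose in bone marrow against AGM, with list medians of 0.10 and 0.15 on the log2 scale. Of all tested genes 2.92% rose in the first comparison and 5.29% in the second. Sirt3, a mitochondrial deacetylase that acts on Sod2, had 102 CPM in bone marrow and 30.8 CPM in AGM (log2 fold change 1.73 ± 0.34, adjusted p = 0.0017, edgeR), and 72.1 CPM in fetal liver (1.23 ± 0.33 against AGM, adjusted p = 0.032). Akt2, a kinase that keeps FoxO proteins out of the nucleus, had 47.2 CPM in bone marrow and 11.8 CPM in AGM (1.99 ± 0.56, adjusted p = 0.030). The call of Sirt3 in fetal liver was lost when any 1 of 7 plates was left out, that of Akt2 with any 1 of 7, and that of Sirt3 in bone marrow without fetal liver plate 4. The call of Sirt3 in fetal liver was also lost without the cells richest in endothelial markers and without TMM, and that of Akt2 without TMM.

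Of 20 FoxO targets, 2 rose and 2 fell in fetal liver against AGM, 2 rose and 1 fell in bone marrow against fetal liver, and 3 rose and 2 fell in bone marrow against AGM. Over all tested genes 2.92% rose and 1.91% fell, 2.68% rose and 2.06% fell, and 5.29% rose and 3.63% fell in these comparisons. The list medians were 0.24, 0.66 and 1.16 on the log2 scale. Pik3ip1, an inhibitor of phosphoinositide 3-kinase, rose in all 3, with 24.1 and 28.9 CPM on the AGM plates, 35.0 to 79.4 CPM in fetal liver and 108 to 154 CPM in bone marrow, and no overlap. Its log2 fold changes were 1.34 ± 0.32, 1.05 ± 0.25 and 2.39 ± 0.34 (adjusted p = 0.0151, 0.0166 and 6.50e-05, edgeR). The calls of Pik3ip1 in fetal liver against AGM and in bone marrow against fetal liver were lost with library totals in place of TMM, the first also after thinning and the second also under the stricter cell filter. Its promoter held none of the 4 patterns searched. Sesn1, a sestrin that restrains mTORC1 and oxidative stress, was highest in fetal liver, with 24.7 and 25.1 CPM in AGM, 116 to 239 CPM in fetal liver and 57.1 to 102 CPM in bone marrow. It rose 8.01-fold in fetal liver against AGM (adjusted p = 3.4e-06, edgeR), fell by 1.41 on the log2 scale in bone marrow against fetal liver, and was still higher in bone marrow than in AGM (1.59 ± 0.30, adjusted p = 0.0013). Tsc22d3, a glucocorticoid-induced leucine zipper protein, rose in bone marrow, with 186 CPM against 84.5 CPM in fetal liver (1.14 ± 0.24, adjusted p = 0.0073) and 58.6 CPM in AGM (1.67 ± 0.32, adjusted p = 0.0014).

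The FoxO targets that fell against AGM were Cdkn1a, an inhibitor of cyclin-dependent kinases, and Klf2, a transcription factor that is also high in endothelium. Cdkn1a had 59.2 CPM in AGM, 6.55 CPM in fetal liver and 6.49 CPM in bone marrow (-3.18 ± 0.67 in fetal liver against AGM, adjusted p = 0.0058, edgeR). Klf2 had 34.3 CPM in AGM, 1.01 CPM in fetal liver and 1.04 CPM in bone marrow (-5.04 ± 1.15 in fetal liver against AGM, adjusted p = 0.0104). Endothelial markers were highest in AGM as well. The calls of both genes held without the 10% of cells richest in those markers, a removal that took the same part of every plate. The markers of the cells left were not summed, and an endothelial source of the AGM levels was not tested. Without fetal liver plate 4 the calls of Pik3ip1 in fetal liver against AGM, of Sesn1 in both bone marrow comparisons, and those of Tsc22d3, Cdkn1a and Klf2 were lost. Pik3ip1 in bone marrow against fetal liver was also lost without fetal liver plate 3 or bone marrow plate 4. Klf2 was also lost in bone marrow without AGM plate 1 or bone marrow plate 5, and in fetal liver without AGM plate 1 or bone marrow plates 3 or 4.

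**Figure D4:**
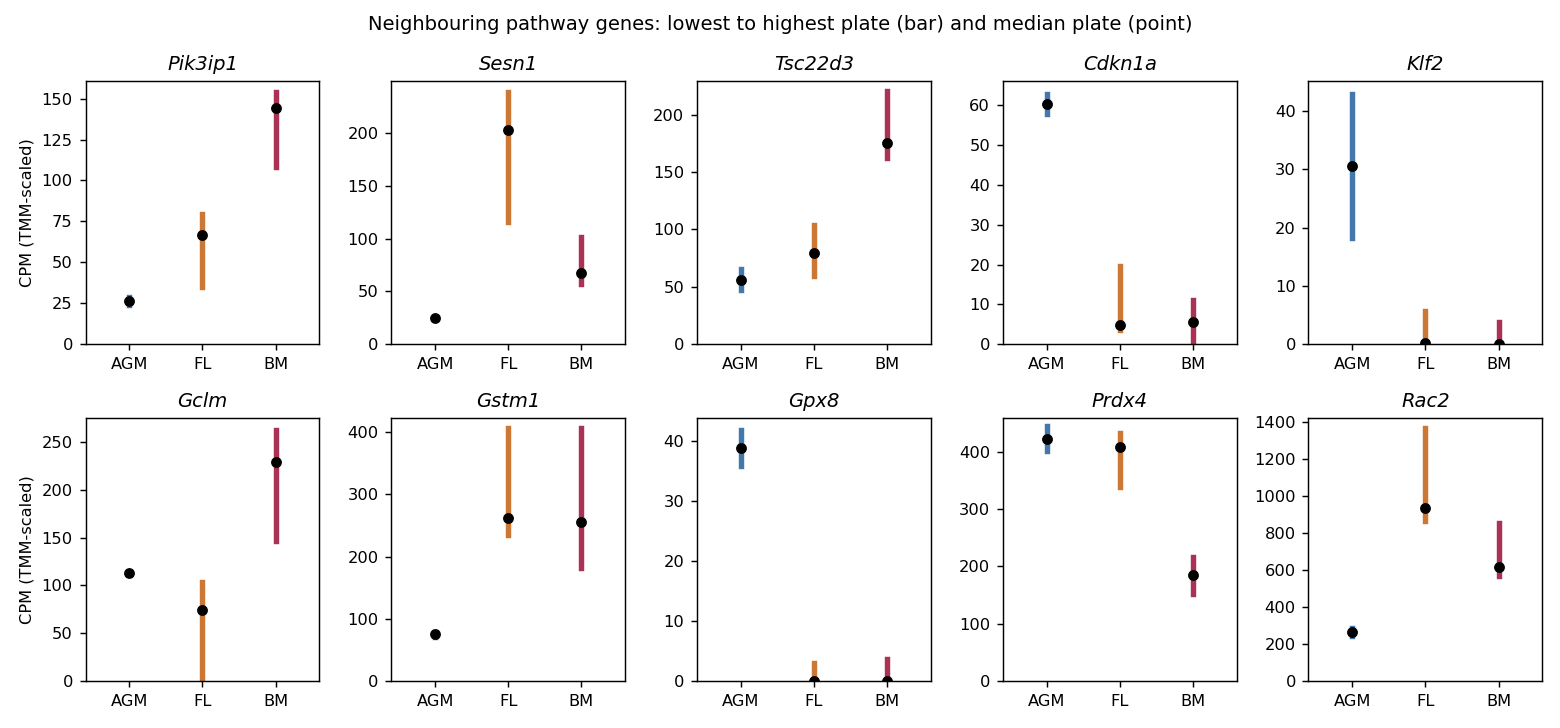
Levels in CPM (linear axes from 0, TMM-scaled) of 10 genes of the neighbouring pathways in AGM, fetal liver (FL) and bone marrow (BM); bars run from the lowest to the highest plate and points are the median plate, over 2, 5 and 5 plates. Pik3ip1 plates do not overlap between tissues and are highest in bone marrow, Sesn1 peaks in fetal liver, and Cdkn1a, Klf2 and Gpx8 are highest in AGM.

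None of the superoxide dismutases, catalase, Gpx1, Prdx1 or Txn1 passed the test in any comparison. In GRCm38 these genes lie on chromosome 16 from 90220754 (Sod1, plus strand), 17 from 13006846 (Sod2, plus), 2 from 103453849 (Cat, minus), 9 from 108338903 (Gpx1, plus), 4 from 116685544 (Prdx1, plus) and 4 from 57943373 (Txn1, minus). Sod1 had 560 and 567 CPM on the AGM plates, 427 to 596 CPM in fetal liver and 455 to 641 CPM in bone marrow, and its log2 fold changes were -0.18 ± 0.24, 0.16 ± 0.20 and -0.02 ± 0.24. Sod1 overlaps Scaf4 on the opposite strand. Sod2 had 145 and 138 CPM on AGM plates, 179 to 246 CPM on fetal liver plates and 151 to 230 CPM on bone marrow plates, with both AGM plates below all others. Its fetal liver change against AGM was 0.63 ± 0.27 (adjusted p = 0.245), and it passed in 4 of 27 alternatives. Ccs, the copper chaperone of Sod1, had 96.1 CPM in bone marrow and 84.3 CPM in AGM and did not pass.

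Cat had 62.1 and 73.6 CPM in AGM, 77.6 to 164 CPM in fetal liver and 57.9 to 96.1 CPM in bone marrow. The fetal liver plates were above both AGM plates (0.77 ± 0.31, adjusted p = 0.207), and Cat passed there in 3 of 27 alternatives. Gpx1 had 1025 and 1118 CPM in AGM, 1423 to 2420 CPM in fetal liver and 1590 to 1915 CPM in bone marrow, with both AGM plates below the other 10. Its log2 fold changes were 0.74 ± 0.25 in fetal liver against AGM (adjusted p = 0.112) and 0.72 ± 0.25 in bone marrow against AGM (adjusted p = 0.0868). Gpx1 passed in both with DESeq2 (adjusted p = 0.0117 and 0.00967). It also passed in both with each plate as a library, under limma and with the plate number as a replicate block. Limma took the origin code as a random block, with an estimated correlation of -0.098 within a code. The plates of 1 origin code are not independent in either fit, and AGM stayed 1 code. In all Gpx1 passed in 6 and 5 of 27 alternatives, with adjusted p up to 0.719 and 0.513.

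Prdx1 had 755 and 777 CPM in AGM, 805 to 1085 CPM in fetal liver and 560 to 714 CPM in bone marrow, with no overlap between any of the tissues. Bone marrow against fetal liver gave -0.54 ± 0.20 (adjusted p = 0.146, edgeR), and Prdx1 passed there with DESeq2 (-0.54, adjusted p = 0.0416) and in 5 of 27 alternatives, with adjusted p up to 0.742. Txn1 had 819 and 769 CPM in AGM, 1084 to 1435 CPM in fetal liver and 727 to 1177 CPM in bone marrow. All its fetal liver plates were above both AGM plates (0.68 ± 0.27, adjusted p = 0.189), a change that passed in 4 of 27 alternatives. Near-identical copies without a row of their own exist for Sod1 (Gm8566), Prdx1 (Gm21399 and Gm7204) and Txn1 (Txn-ps1), so those counts may include or lack their reads.

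The share of cells with a thinned UMI of an enzyme gene was lowest in bone marrow for Sod1, Sod2, Cat, Prdx1 and Txn1. For Sod2 the shares were 68.8% of AGM cells, 76.8% of fetal liver cells and 43.4% of bone marrow cells, and for Cat they were 55.3%, 60.9% and 28.1%. For Prdx1 they were 100%, 99.8% and 88.3%, whereas Gpx1 was found in all thinned cells. Bone marrow cells also had fewer genes of any kind after thinning, with plate medians of 1674.5 to 2077 genes against 2759 to 3601 in fetal liver and 3355 to 3376 in AGM. Where the share was lower than in AGM and the summed level was not, as for Sod2, Cat and Txn1, no order was read, nor for Sod1 (100%, 94.7% and 82.4% of cells), whose level was alike. The part of depth in these shares was not tested. Without thinning the shares of Sod2 were 95.8%, 86.3% and 61.2%.

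The spread between cells was widest in bone marrow for the enzymes found in most cells. The coefficient of variation of thinned Txn1 UMIs was 0.32 for AGM, 0.39 for fetal liver and 0.71 for bone marrow cells, and that of Prdx1 was 0.36, 0.51 and 0.90. For Sod1 it was 0.50, 0.70 and 0.95, and for Txnip 1.32, 1.05 and 1.09. For Gpx1, found in all thinned cells, it differed less, at 0.42, 0.35 and 0.45. Mean thinned Prdx1 was also lowest in bone marrow, at 18.3, 18.0 and 11.8 UMIs in the same order. The part of the level in these spreads was not tested.

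**Figure D5:**
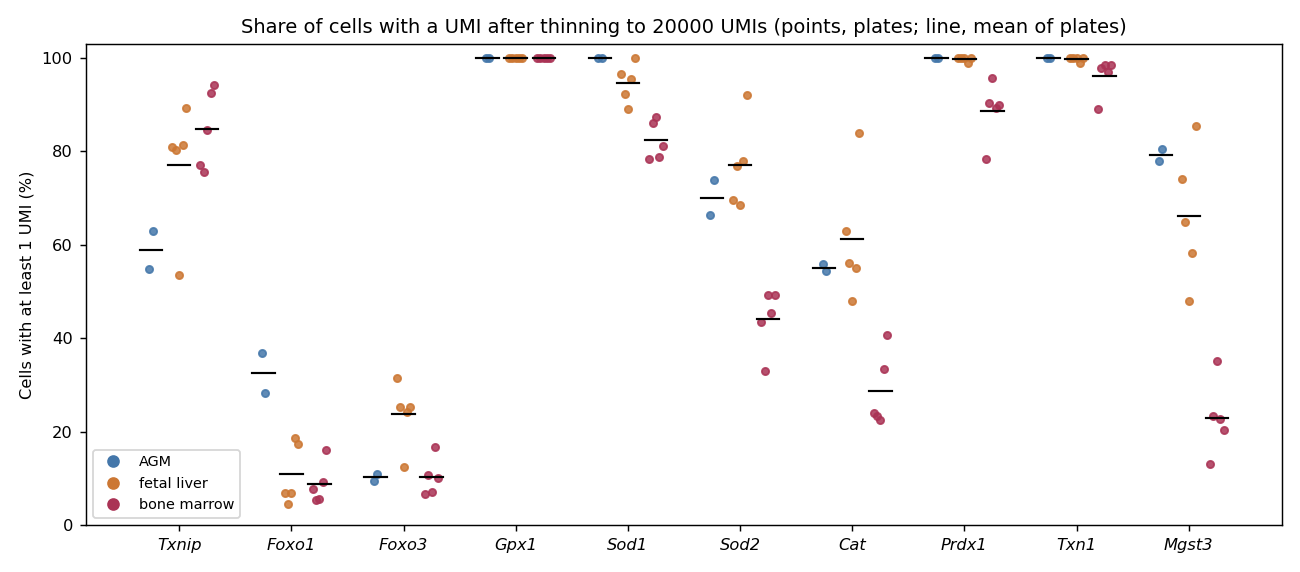
Percent of cells (vertical axis) with at least 1 UMI of each of the 10 genes after each cell was thinned to 20000 UMIs; points are plates and lines the mean of the plates of AGM, fetal liver and bone marrow. The Txnip share over cells is lowest in AGM (57.4%), although fetal liver plate 3 (53.4%) lies below both AGM plates, and those of Sod2, Cat and Mgst3 are lowest in bone marrow (43.4%, 28.1% and 22.4% of cells).

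Within plates, cells were split by at least 1 thinned UMI of Mki67, a proliferation marker, on the 10 plates with at least 5 cells on each side. Mean Txnip was higher in cells with Mki67 on 5 of 10 plates, namely 0 of 2 AGM, 4 of 5 fetal liver and 1 of 3 bone marrow plates, while cycling markers differed between tissues as given above. Sod1 was higher with Mki67 on 9 of 10 plates (median log2 ratio 0.265) and Prdx1 on 8 of 10 (0.0949), including all 5 fetal liver plates. In unthinned CPM Sod1 was higher on 10 of 12 plates (0.107) and Prdx1 on 9 of 12 (0.106). The same count over all genes was not taken, so these counts have no background. Gpx1 was higher on 3 of 10 and, in unthinned CPM, on 0 of 12. Across cells within plates, the Spearman correlations of the 45 pairs of members had medians over plates from -0.132 to 0.152, which in sparse counts is no finding.

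Among the enzymes that make and use glutathione, 4 of 19 rose and 2 fell in fetal liver against AGM, 2 rose and 1 fell in bone marrow against fetal liver, and 2 rose and 3 fell in bone marrow against AGM, with list medians of -0.02, -0.01 and 0.21. The shares of all tested genes were 2.92% and 1.91%, 2.68% and 2.06%, and 5.29% and 3.63% in the same order. Gstm1, a cytosolic glutathione S-transferase, had 71.1 and 79.0 CPM in AGM, 234 to 406 CPM in fetal liver and 181 to 406 CPM in bone marrow. It rose by 1.95 ± 0.32 in fetal liver against AGM (adjusted p = 0.00053, edgeR) and by 2.01 ± 0.32 in bone marrow against AGM (adjusted p = 0.00024). Mgst1 and Mgst2, the other microsomal transferases, rose in fetal liver against AGM (1.58 ± 0.40 and 2.20 ± 0.58, adjusted p = 0.023 and 0.029). Both calls were lost without the 10% of cells richest in endothelial markers and without TMM. Each was also lost when any 1 of 5 plates (Mgst1) or 7 plates (Mgst2) was left out, and that of Mgst2 without the cells richest in erythroid markers. In fetal liver against AGM 565 genes were called in all without the cells richest in endothelial markers, against 748 with them. An endothelial part in the 2 changes was not tested. Glrx, a glutaredoxin, rose against AGM in fetal liver (1.28 ± 0.32, adjusted p = 0.019) and in bone marrow (1.27 ± 0.32, adjusted p = 0.013).

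Gclm, the modifier subunit of the enzyme that limits glutathione synthesis, had 112 and 113 CPM on AGM plates, from 2.36 CPM up with a median of 74.5 CPM on fetal liver plates, and 146 to 262 CPM on bone marrow plates. It rose by 1.65 ± 0.25 in bone marrow against fetal liver (adjusted p = 0.00027), as did Gpx7, an endoplasmic reticulum peroxidase, by 2.66 ± 0.53 (adjusted p = 0.0044). Gpx8, another peroxidase of that compartment, and Gpx3, a secreted one, were highest in AGM. Gpx8 had 39.6 CPM in AGM, 0.768 CPM in fetal liver and 0.745 CPM in bone marrow. Gpx3 had 68.6 CPM in AGM, 8.46 CPM in fetal liver and 2.14 CPM in bone marrow, and both genes fell in fetal liver and in bone marrow against AGM. Glrx3 fell in bone marrow against fetal liver and Glrx5, which serves iron-sulfur cluster assembly, fell in bone marrow against AGM (-1.13 ± 0.27, adjusted p = 0.011).

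Of 6 other peroxiredoxin genes, including the sulfiredoxin Srxn1, Prdx4, the peroxiredoxin of the endoplasmic reticulum, fell in bone marrow. It had 402 and 445 CPM in AGM, 338 to 434 CPM in fetal liver and 153 to 217 CPM in bone marrow. Its log2 fold changes were -0.98 ± 0.20 in bone marrow against fetal liver (adjusted p = 0.0065, edgeR) and -1.10 ± 0.24 in bone marrow against AGM (adjusted p = 0.0047). The other 5 did not pass in any comparison, and the list medians were 0.12, 0.16 and 0.22. Of all tested genes 2.06% fell in bone marrow against fetal liver and 3.63% in bone marrow against AGM.

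The Nrf2 list held 19 genes of the pathway of the factor Nfe2l2, which binds antioxidant response elements. Of these, 0 passed in fetal liver against AGM, where 2.92% of all tested genes rose and 1.91% fell. In bone marrow against fetal liver 2 rose, where 2.68% of all genes rose and 2.06% fell. In bone marrow against AGM 1 rose and 1 fell, beside 5.29% and 3.63% of all genes. The list medians were 0.30, 0.17 and 0.47. Those that rose against fetal liver were Gclm, given above, and Mafg, a small partner of Nfe2l2, at 60.7 CPM in bone marrow and 21.0 CPM in fetal liver (1.53 ± 0.35, adjusted p = 0.012). Against AGM, the ferritin heavy chain Fth1 rose (1.02 ± 0.28, adjusted p = 0.026) and Pgd, of the pentose phosphate pathway, fell (-1.14 ± 0.30, adjusted p = 0.018).

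Of 6 NADPH oxidase genes, which make superoxide, Rac2 had 257 CPM in AGM, 981 CPM in fetal liver and 689 CPM in bone marrow. Rac2 rose against AGM in fetal liver (1.93 ± 0.28, adjusted p = 0.00013) and in bone marrow (1.42 ± 0.27, adjusted p = 0.0015), and Ncf4 rose in bone marrow against AGM (2.86 ± 0.69, adjusted p = 0.011). Ncf4 was low in AGM, with 111 UMIs and with 1.37 and 8.9 CPM as the lower and higher plate. Its call was lost without AGM plate 1, bone marrow plate 4 or fetal liver plate 4. Of 12 regulators of redox state in blood stem cells, Meis1, a homeobox factor, rose in bone marrow against AGM (1.51 ± 0.30, adjusted p = 0.0022), and so did Ucp2, a mitochondrial carrier, with 360 CPM in bone marrow and 180 CPM in AGM. Both rose in fetal liver against AGM as well. Stk11, a kinase upstream of AMPK, rose in bone marrow against fetal liver (1.39 ± 0.35, adjusted p = 0.026). Epas1, a hypoxia-inducible factor also found in endothelium, fell in bone marrow against AGM, with 3 UMIs in bone marrow and 593 in AGM. Its call was lost without bone marrow plate 5, without fetal liver plate 4 and without the 10% of cells richest in endothelial markers. Without those cells Gpx3, Meis1, Mgst1, Mgst2 and Sirt3 lost their call in fetal liver against AGM. So did Glrx3 in bone marrow against fetal liver, which made 7 of 44 pathway calls in all. Over all genes 565 were called in fetal liver against AGM without those cells, against 748 with them. In bone marrow against fetal liver 591 were called, against 732. An endothelial part in these losses was not tested. The list medians in fetal liver against AGM, bone marrow against fetal liver and bone marrow against AGM were 1.15, -0.56 and -0.00 for NADPH oxidase. Those of the redox regulators were 0.23, 0.06 and 0.43. In the same order 2.92%, 2.68% and 5.29% of all tested genes rose, and 1.91%, 2.06% and 3.63% fell.

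Without fetal liver plate 4, 41 of the 44 calls of pathway genes were lost. Calls of bone marrow against AGM, which holds no fetal liver cells, were among them, as all tissues share 1 estimate of the spread. Without bone marrow plate 5, 19 were lost, and without bone marrow plate 4, 12 were lost. Without the 10% of cells richest in erythroid markers 8 were lost, among them those of Fth1 and Pgd. Over all genes 748 and 732 were called in fetal liver against AGM and in bone marrow against fetal liver. These were 426 and 402 without bone marrow plate 5, and 513 and 514 without bone marrow plate 4. Without the cells richest in erythroid markers they were 584 and 459, and with library totals in place of TMM 616 and 499. Library totals in place of TMM lost 16 of the 44, among them those of Glrx, Ucp2, Meis1, Mgst1, Mgst2, Akt2, Fth1, Stk11 and Glrx3, and the plate number as a replicate block lost 10. When plates were left out singly, the calls of Gstm1 and Prdx4, those of Gclm and Gpx7 in bone marrow against fetal liver, and that of Rac2 in bone marrow against AGM were lost only without fetal liver plate 4. The calls of Glrx3, and of Gpx3 and Meis1 in fetal liver against AGM, were lost without any of 8, 10 and 10 plates.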

How the data were processed

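The authors deposited raw UMI counts per gene symbol and well, 1 table for each of 12 plates, per the file headers. The tools UMI-tools, SAMtools and featureCounts and the build mm10 are named in the submitters' processing notes. The sources used here give neither annotation nor strand setting. Wells with at least 1000 genes, 3000 UMIs and under 20% mitochondrial UMIs were kept (1020 of 1152). Doublets were not called, as wells were sorted with single cells. Counts were summed by origin code into 5 libraries and compared with edgeR 4.0.16 under R 4.3.3 (quasi-likelihood test, TMM, filterByExpr) with Benjamini-Hochberg adjustment over 15472 tested genes, at a threshold of 0.05. Residual degrees of freedom were 2 and the common biological coefficient of variation was 0.619. Nothing shows that the libraries are separate animals, so p-values measure only the spread between them. An error is the log2 fold change over the square root of F. CPM are per TMM-scaled library. The steps were tested on simulated data. The members, gene lists and tests were chosen with earlier results of these data known. All members are named, with called genes of the pathway lists or otherwise the 3 of smallest adjusted p, and the 5 genes most like Txnip; 1 pathway result is not reported here. Near-identical copies share at least 95% over 200 bases (BLAST 2.17.0+). DESeq2 1.42.0 and limma 3.58.1 served as alternatives, beside other scalings, filters, thinning and left-out plates.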

Additional observations from a re-analysis of the deposited data

Results flagged for a closer look

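In 42 groups of 5 plates, covering the level and the share of thinned cells of each member and the Foxo1 part of the FoxO UMIs, 5 held a plate far from the other 4. Chance gives such a plate in about 1 in 20 groups. Foxo1 stood at 64.1 CPM on bone marrow plate 5, against 7.93 to 16.3 CPM on the other bone marrow plates, and 1 bone marrow cell held 13.6% of the Foxo1 UMIs of that tissue. A Txnip UMI was found in 53.4% of thinned cells of fetal liver plate 3, against 80.2% to 89.3% on the other fetal liver plates, while its summed level there, 167 CPM, was close to the 172 CPM of plate 5. Prdx1 and Txn1 were each found in 98.9% of thinned cells of fetal liver plate 4, against 100% on the others; with all others at 100% any lower value stands apart by construction, so these 2 carry little weight. Txn1 was found in 89.1% of thinned cells of bone marrow plate 1, against 97.0% to 98.6% on the others; that plate had the most UMIs per detected gene, a median of 18. The cause was not tested in any of them.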

How the results depend on the processing

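Of 135 alternative values of the 5 called member changes, 126 kept direction and call, 9 lost the call and 0 reversed. In fetal liver against AGM the members called were 1 of 10. They were 2 with DESeq2, 7 with both tissues alone, 5 with limma on plates, 0 without TMM, 7 without bone marrow plates 1 to 3 or 4 to 5, and 0 without fetal liver plates 4 to 5. In bone marrow against fetal liver 2 were called, and 1 with both tissues alone or without fetal liver plates 1 to 3, 4 with limma, and 4 without bone marrow plates 1 to 3 or 4 to 5. In bone marrow against AGM 2 were called, and 4 with DESeq2 or limma, and 5 or 4 when bone marrow plates 1 to 3 or 4 to 5 were left out. Leaving out 1 plate gave 0 to 2, 0 to 2 and 1 to 3 members, and 181 to 875, 117 to 741 and 329 to 1618 genes. Over all genes 748, 732 and 1380 were called. In fetal liver against AGM these were 2218 with both tissues alone, 2170 with limma, 2186 and 2164 without bone marrow plates 1 to 3 and 4 to 5, and 479 without fetal liver plates 4 to 5. In bone marrow against fetal liver they were 331, 2127, 1718 and 1958 under the same settings, 373 and 365 without fetal liver plates 1 to 3 and 4 to 5, and 459 without the cells richest in erythroid markers. In bone marrow against AGM they were 3610 with limma, and 2748 and 2466 without bone marrow plates 1 to 3 and 4 to 5. The cause was not tested.

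With the plate number as a replicate block 2, 4 and 3 members were called. Same-numbered plates of different tissues share only a number: their deviations correlated at -0.020 to 0.078 (median 0.024, 15 pairs), so the block was not taken as a pairing. Depth limits Foxo1 and Foxo3 most, with 2059 and 2001 UMIs in all.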
